A study of Mus musculus with 2 samples.

Results

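NF-κB is a family of dimeric transcription factors that switches on inflammatory and survival genes in myeloid cells. In resting cells the dimers are held inactive by IκB proteins, stimulation of Toll-like, interleukin-1 or TNF receptors leads to IκB destruction, and the released dimers then transcribe the genes of their own inhibitors, which closes a negative feedback loop. Transcripts of the inhibitors are therefore widely read as markers of recent pathway activity, although transcript counts do not measure the protein, its modification or its nuclear entry.

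The 10 genes described here, of 32285 counted, are the 5 subunit genes (Nfkb1, Nfkb2, Rela, Relb and Rel) and 5 genes of inhibitors and IκB family members (Nfkbia, Nfkbie, Nfkbid, Nfkbiz and Tnfaip3). They are listed by name, and the rule uses no measured value, although results of these data were known when the list was made. The cells came from 4T1 mouse breast carcinomas of BALB/c mice aged 6 to 8 weeks and were isolated on beads as GR1-positive cells, GR1 being a surface antigen shared by neutrophils and some monocytes. The tumors that do not respond to anti-PD1 came from the parental line (4T1P), and the responding ones from a mutagenized line derived from it (4T1M). The paper calls 4T1M a clone, while its methods describe the mutagenized cells as multiclonal. A single mutagenized line thus stands for the responding condition. Cells were pooled into 1 droplet library per condition, from tumors that had not received the antibody. The labels give 5 mice per pool, and the sources differ on this number and on the age. With 1 library per condition there are no replicates, so no test between conditions was possible and no p-value is given. All intervals below are at 95%. Except for shares of cells, they cover the counting error of the UMIs (unique molecular identifiers, each marking 1 captured transcript) and not differences between cells. None covers differences between mice, tumors or libraries.

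A barcode was retained if it held 500 to 5000 genes and no more than 10% of its UMIs were mitochondrial, which left 1726 of 2947 in 4T1P and 3461 of 5004 in 4T1M. Neutrophils were barcodes with at least 1.5% of UMIs from S100a8 and S100a9 and under 0.5% from C1qa, C1qb, C1qc and Apoe (612 in 4T1P and 1686 in 4T1M, median 3054 and 2958 UMIs). Macrophages had less S100a8 and S100a9 and at least 0.3% of UMIs from C1qa, C1qb, C1qc, Apoe, Csf1r, Cd68 and Fn1 (798 and 976, median 9727 and 9214 UMIs). The 10 neutrophil markers summed to 175672 and 143417 CPM (UMIs per 1000000 of the class) in 4T1P and 4T1M neutrophils against 732 and 1437 CPM in macrophages, and the 12 monocyte and macrophage markers to 689 and 799 CPM against 21602 and 20745 CPM. The libraries shared 5 barcode sequences, 3 of them retained in both.

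In the mouse genome (GRCm38, GENCODE annotation) all 10 are protein-coding genes. The subunit genes lie at chr3:135584655-135691547 on the minus strand (Nfkb1), chr19:46304320-46312385 on the plus strand (Nfkb2), chr19:5637483-5648130 on the plus strand (Rela), chr7:19606217-19629438 on the minus strand (Relb) and chr11:23736847-23770970 on the minus strand (Rel). The inhibitor genes lie at chr12:55489410-55492647 on the minus strand (Nfkbia), chr17:45555703-45563169 on the plus strand (Nfkbie), chr7:30421732-30428746 on the plus strand (Nfkbid), chr16:55811375-55838899 on the minus strand (Nfkbiz) and chr10:19000910-19015657 on the minus strand (Tnfaip3). Among genes counted in the files, only Nfkb2 overlaps others, Psd by 299 bases and the non-coding AC114539.1 by 1292 bases, both on the opposite strand.

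Promoter sequences are shown because the feedback loop runs through NF-κB binding sites (κB sites) in these genes' own promoters. RefSeq promoter windows (GRCm38.p6, 250 bases before to 50 after a transcript start) were at hand for 7 of the 10 genes, in 12 windows. The κB consensus of 10 bases, GGGRNNYYCC (R for A or G, Y for C or T, N for any base), was searched on both strands. It was found in 8 of the 12 member windows, whereas 8.46% of all 32851 windows held it. Windows of 6 of the 7 genes, all but Rela, held it, and the share per gene over all genes was not counted. Some windows of Nfkb2 overlap and hold a match in common, so the windows are not independent. The consensus occurred at 13 positions, of which 5 belonged to Nfkb2. A match is a run of letters and not a measured binding site. The starts are those of RefSeq transcripts, and some lie inside the gene spans given above. The matches shown for Nfkbid, Nfkb2 and Tnfaip3 lie within those spans, before such inner starts. The Nfkbid window at the start of its span held no match. Some matches read as the consensus only on the strand opposite to the gene. These are the shown matches of Nfkbia and Rel, the Tnfaip3 match nearest the start, and the Nfkbid match at 172 to 181 bases. Shown 5′ to 3′ on the gene's strand, with the match in capitals, are the match nearest before a start for each gene and, for Nfkbid and Tnfaip3, both matches.
Nfkbia, chr12:55492659-55492684, minus strand, 20 to 29 bases before the start: actggcttGGAAATTCCCcgcgcctg
Tnfaip3, chr10:19015405-19015430, minus strand, 3 to 12 bases before the start: tttccatcGGAAATCCCCctgttggc
Tnfaip3, chr10:19015518-19015543, minus strand, 116 to 125 bases before the start: ctcacgcgGGGACACCCCggggcggg
Nfkbie, chr17:45555586-45555611, plus strand, 97 to 106 bases before the start: agcaaacaGGGGGATTCCggaggggc
Nfkbid, chr7:30422172-30422197, plus strand, 217 to 226 bases before the start: cccgccctGGGACTTCCCagagcacc
Nfkbid, chr7:30422217-30422242, plus strand, 172 to 181 bases before the start: gccgaacaGGAATTCCCCgtgcgcgg
Nfkb2, chr19:46304718-46304743, plus strand, 2 to 11 bases before the start: ggccgaaaGGGGCTTTCCcggctgga
Rel, chr11:23771043-23771068, minus strand, 82 to 91 bases before the start: aagcagcgGGAAATCCCCccccctcc

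The first question was how the NF-κB genes are expressed in neutrophils of the 2 tumor types. All 10 had a higher CPM in neutrophils of 4T1M than of 4T1P, with a median log2 ratio of 0.47 against 0.05 over the 6465 genes with at least 50 UMIs in both sums together. Of all genes tested, 55.7% had a ratio above 0. The interval of the ratio lay above 0 for 9 of the 10, the exception being Rela, and for 16.3% of all genes tested. A ratio of at least 1.5-fold was reached by 2 of the 10, Tnfaip3 and Nfkbie, where 9.81% of all genes tested were higher and 3.12% lower by that fold, and no member was lower. Over the whole class, the shift was thus shared by the members in point value but mostly modest in size.

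Among the subunits, Nfkb1, the precursor of a DNA-binding subunit without an activation domain of its own, stood at 143 CPM (129 to 159) in 4T1P and 196 CPM (185 to 207) in 4T1M neutrophils, a log2 ratio of 0.45 (0.28 to 0.62). Nfkb2, the precursor that serves the slower non-canonical branch, stood at 76.3 and 103 CPM, a log2 ratio of 0.43 (0.20 to 0.67). Relb, the usual partner of the Nfkb2 product, stood at 46.3 and 67.3 CPM, with a log2 ratio of 0.54 (0.24 to 0.85). The counting intervals of the 2 libraries did not overlap for any of these 3 subunits. Rel, the activating subunit best known from lymphocytes, stood at 298 CPM (277 to 320.2) and 376 CPM (362 to 391), and the log2 ratio was 0.34 (0.22 to 0.46). Rela, the activating subunit of the canonical dimer, stood at 47.1 CPM (39.0 to 56.5) and 57.1 CPM (51.5 to 63.2), and these intervals overlapped. Its log2 ratio was 0.28 (-0.02 to 0.59), so that a difference in Rela was not detectable at this depth of 118 and 376 UMIs.

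Among the inhibitors, Nfkbia, which encodes IκBα, the inhibitor that retains the canonical dimer in the cytoplasm, stood at 6078 CPM (5982 to 6176) in 4T1P and 8526 CPM (8456 to 8597) in 4T1M neutrophils, a log2 ratio of 0.49 (0.46 to 0.51). Tnfaip3, a ubiquitin-editing enzyme that dampens the signal upstream of IκB destruction, stood at 639.6 CPM (609 to 672) and 1217 CPM (1191 to 1244). At a log2 ratio of 0.93 (0.85 to 1.01) it had the largest ratio of the 10 genes. Nfkbie, which encodes a further cytoplasmic IκB, stood at 55.1 CPM (46.3 to 65.1) and 88.9 CPM (81.8 to 96.4), and the log2 ratio was 0.69 (0.42 to 0.97). Nfkbiz and Nfkbid encode nuclear IκB proteins that modulate transcription rather than retain the dimers. Nfkbiz stood at 1436 CPM and 2032 CPM, a log2 ratio of 0.50 (0.45 to 0.56). Nfkbid stood at 71.5 CPM and 96.8 CPM, a log2 ratio of 0.44 (0.20 to 0.68).

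**Figure D1:**
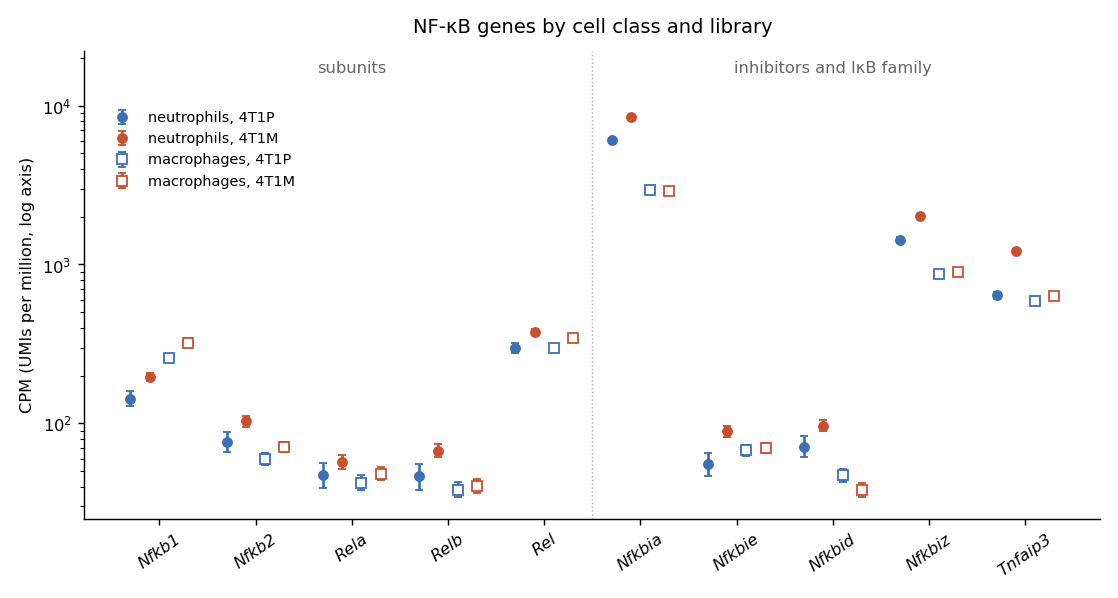
CPM (log axis) of each gene in neutrophils (filled circles) and macrophages (open squares) of 4T1P (blue) and 4T1M (red), with 95% Poisson intervals, most of them smaller than the symbols. The 4T1M neutrophil value lies above the 4T1P neutrophil value for all 10 genes, as for Tnfaip3 at 1217 against 639.6 CPM, while the macrophage pairs lie closer together.

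The share of neutrophils with at least 1 UMI was compared at an equal depth of 1000 UMIs drawn per cell (4 cells of 4T1M held fewer and were set aside). Tnfaip3 was then found in 41.2% (37.2 to 45.2) of 4T1P and 59.0% (56.6 to 61.4) of 4T1M neutrophils (unthinned 69.4% and 83.2%). Nfkbia was found in 87.9% (85.1 to 90.4) and 93.3% (92.0 to 94.4), unthinned 92.5% and 95.1%. Nfkbie was found in 4.58% (3.06 to 6.54) and 8.38% (7.10 to 9.81), unthinned 15.5% and 24.0%. The intervals of the 2 libraries were apart for these 3 genes and for Nfkbiz, at 65.8% (61.9 to 69.6) and 75.6% (73.5 to 77.7). They overlapped for Nfkbid and for every subunit, as for Nfkb1 at 12.3% (9.76 to 15.1) and 14.3% (12.7 to 16.1). Most of these genes were found in few cells, which limits what can be told apart. How many of all genes had intervals apart was not counted. Rela was found in 5.07% and 5.05% of the cells (unthinned 15.8% and 18.1%). No class of cells here is known to lack these genes, so the share given by free RNA could not be read from one.

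Other features of the neutrophil class differed between the libraries as well. The summed neutrophil markers were lower in 4T1M (values above), 6 epithelial and tumor cell markers summed to 77.5 CPM in 4T1P and 17.2 CPM in 4T1M neutrophils, and the cytokine-high cells described below made up 4.25% (2.79 to 6.16) and 15.5% (13.8 to 17.4) of the class. Among the neutrophils below the cytokine gate alone the median log2 ratio of the 10 genes was 0.43, and Tnfaip3 had 0.84 (0.75 to 0.92) and Nfkbia 0.42 (0.39 to 0.45). Among the neutrophils without a UMI of Il1a, Tnf or Il23a (264 and 394 cells) the median was 0.31, against 0.01 over all genes. Tnfaip3 was at 0.55 (0.38 to 0.73), Nfkbia at 0.28 (0.22 to 0.34) and Rela at -0.18 (-0.82 to 0.46). The intervals of Nfkb1 at 0.05 (-0.39 to 0.49), Relb at 0.13 (-0.52 to 0.79) and Nfkbie at 0.61 (-0.02 to 1.26) also reached across 0. Without the cells above the 90th percentile of the share of Camp, Ltf, Ngp and Lcn2, granule genes of immature neutrophils, the median was 0.39. The part of the other differences in the result was not tested.

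In macrophages the same genes lay close together in the 2 tumor types. None of the 10 reached 1.5-fold in either direction, where 4.03% of the 9874 genes tested were higher and 4.08% lower in 4T1M. The median log2 ratio was 0.10 against -0.03 for all genes. Nfkb1 stood at 259.6 CPM (249 to 270.5) in 4T1P and 322 CPM (311 to 334) in 4T1M, a log2 ratio of 0.31 (0.23 to 0.39). Nfkb2 had a log2 ratio of 0.26 (0.09 to 0.42) and Rel of 0.21 (0.14 to 0.29), so that these 3 subunits were higher in 4T1M beyond counting error. An interval above 0 was found for 5 of the 10 members and 12.3% of all genes tested, and one below 0 for 1 member and 16.9% of all genes. Relb at 0.09 (-0.13 to 0.30) and Rela at 0.19 (-0.02 to 0.39) had intervals that reached across 0.

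Of the inhibitors, Nfkbia, Nfkbiz, Nfkbie and Tnfaip3 lay near 0, and Nfkbid did not. Nfkbia stood at 2950.1 CPM (2914 to 2986) in 4T1P and 2909 CPM (2875 to 2944) in 4T1M, a log2 ratio of -0.02 (-0.04 to 0.00) that became 0.01 and 0.03 under the factors of edgeR's TMM and DESeq2. Tnfaip3 stood at 589 and 634 CPM, a log2 ratio of 0.11 (0.05 to 0.16). Nfkbiz had a log2 ratio of 0.05 (0.00 to 0.09) and Nfkbie of 0.05 (-0.12 to 0.21). Nfkbid ran the other way, with 47.0 CPM (42.6 to 51.8) in 4T1P and 38.1 CPM (34.2 to 42.3) in 4T1M and a log2 ratio of -0.30 (-0.51 to -0.09), which became 0.02 when the mitochondrial limit was set to 5%.

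The make-up of the macrophage class also differed between the libraries. Cells high in Lyve1, Cd163 and Folr2, genes of tissue-resident macrophages, made up 16.8% of the class in 4T1P and 4.51% in 4T1M. The mannose receptor gene Mrc1 stood at 669 and 334 CPM and the matrix gene Fn1 at 3524 and 2286 CPM. Without the cells high in Lyve1, Cd163 and Folr2, a choice made after seeing the data, Nfkbid stood at 40.4 CPM in 4T1P and 38.2 CPM in 4T1M, and its log2 ratio was -0.08 (-0.31 to 0.15). Its difference between the libraries was then not detectable at this depth. Among these cells Nfkb1 was at 0.27 (0.19 to 0.35) and Rel at 0.15 (0.07 to 0.23), Nfkb2 at 0.15 (-0.02 to 0.33) and Tnfaip3 at 0.04 (-0.01 to 0.10) reached across 0, and Nfkbia was at -0.09 (-0.12 to -0.07).

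**Figure D2:**
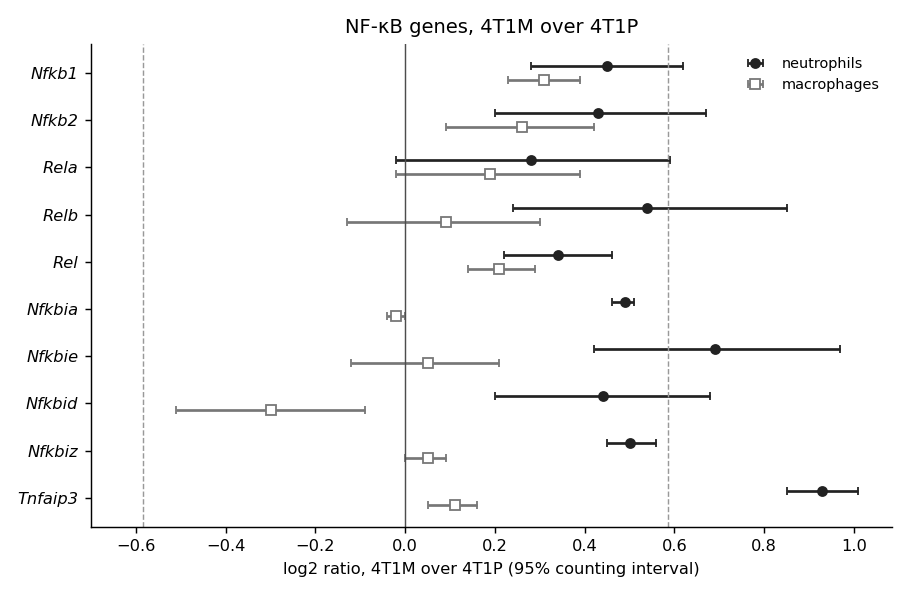
Log2 ratio of 4T1M over 4T1P for each gene in neutrophils (black circles) and macrophages (gray squares), with 95% counting intervals and dashed lines at 1.5-fold. Every neutrophil ratio lies right of 0, up to 0.93 for Tnfaip3, and the macrophage ratios lie between -0.30 for Nfkbid and 0.31 for Nfkb1.

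The next question was how the genes behave in the inflammatory neutrophils of the tumor, taken as those with at least 0.5% of UMIs from Il1a, Tnf and Il23a, which are cytokine genes themselves known as NF-κB targets. There were 26 such cytokine-high cells in 4T1P and 262 in 4T1M, and none of the 10 genes took part in the gate. Between 0.4% and 0.6% lay 12 cells below and 6 above the gate in 4T1P, and 67 and 54 in 4T1M. In 4T1P, 8 of the 10 genes were at least 1.5-fold higher in cytokine-high than in other neutrophils and none was lower, where 21.8% of 3655 genes tested were higher and 26.1% lower, and the median log2 ratio was 0.98 against 0.01 for all genes. In 4T1M, 5 of the 10 were higher and none lower, where 17.1% of 5765 genes were higher and 11.7% lower, with a median of 0.55 against 0.10.

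These values depend on the scaling. The neutrophil markers, which take a large share of all UMIs, summed to 74158 and 58167 CPM in cytokine-high cells of 4T1P and 4T1M against 180285 and 158385 CPM in the others, so that the remaining genes shared a larger part of the total. With edgeR's TMM factors the median over all genes moved from 0.01 to -0.41 in 4T1P and from 0.10 to -0.14 in 4T1M, with 9.82% of genes higher and 41.4% lower in 4T1P and 8.67% and 21.0% in 4T1M. The median of the 10 genes was then 0.57 and 0.31, and 5 of the 10 were higher by 1.5-fold in 4T1P and 1 of the 10, Tnfaip3, in 4T1M. The median of the members lay above that of all genes under each scaling. The 12 monocyte and macrophage markers summed to 910.0 and 945 CPM in cytokine-high cells and 679 and 773 CPM in the others, and no fibroblast or mast cell list exceeded 2.92 CPM in either.

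Tnfaip3 had the highest ratio of the inhibitors in both libraries. It stood at 1434 CPM (1218 to 1677) in cytokine-high and 604 CPM (573 to 635) in other neutrophils of 4T1P, and at 2008 CPM (1920.0 to 2098) and 1079 CPM (1052 to 1106) in 4T1M. Its log2 ratios were 1.25 (1.0 to 1.49) and 0.90 (0.82 to 0.97), or 0.83 and 0.66 with TMM factors. Nfkbia stood at 11315 CPM (10692 to 11965) and 5840.5 CPM (5744 to 5938) in 4T1P, and at 12597 CPM (12376 to 12821) and 7811 CPM (7738 to 7885) in 4T1M. At least 1 Nfkbia UMI was found in all 26 and all 262 cytokine-high cells, also after thinning. Nfkbiz had log2 ratios of 0.71 (0.51 to 0.89) in 4T1P and 0.51 (0.44 to 0.57) in 4T1M.

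The rarer inhibitors followed with wider intervals. Nfkbie rested on 12 UMIs in cytokine-high cells of 4T1P, with a log2 ratio of 1.07 (0.08 to 1.92), and on 123 UMIs in 4T1M, with 0.60 (0.30 to 0.89). Nfkbid rested on 15 and 134 UMIs, with log2 ratios of 1.01 (0.14 to 1.77) and 0.60 (0.32 to 0.88). At 1000 UMIs per cell, each was found in 1 of the 26 cytokine-high cells of 4T1P (3.85%). In other neutrophils of 4T1P the shares were 4.61% for Nfkbie and 7.85% for Nfkbid. Unthinned, Nfkbie was found in 23.1% against 15.2% and Nfkbid in 38.5% against 17.9% there. In 4T1M the thinned shares were 14.1% against 7.32% for Nfkbie and 11.1% against 8.87% for Nfkbid.

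Among the subunits, Rel stood at 616 CPM (477 to 782) in cytokine-high and 284 CPM (263 to 306) in other neutrophils of 4T1P, a log2 ratio of 1.12 (0.73 to 1.48). In 4T1M it stood at 449.8 CPM (409 to 494) and 363 CPM (348 to 379.5), and the log2 ratio was 0.31 (0.16 to 0.46). The 2 ratio intervals were apart, but they leave out differences between cells, of which 4T1P had 26. At 1000 UMIs per cell, Rel was found in 42.3% (23.4 to 63.1) of cytokine-high cells in 4T1P. The share was 29.8% (24.3 to 35.7) in 4T1M, and these intervals overlapped. Nfkb1 had log2 ratios of 1.06 (0.48 to 1.59) and 0.47 (0.27 to 0.67) in 4T1P and 4T1M. For the other 3 subunits the 26 cells of 4T1P gave too few UMIs for a firm value. Nfkb2 had 10 UMIs there and a log2 ratio of 0.28 (-0.80 to 1.19) that turned to -0.13 with TMM factors, against 0.60 (0.32 to 0.87) in 4T1M. Relb had 6 UMIs and 0.26 (-1.21 to 1.43), which turned to -0.15, against 0.24 (-0.14 to 0.60) in 4T1M, which became -0.00. Rela had 8 UMIs and 0.68 (-0.57 to 1.71) against 0.41 (0.01 to 0.78).

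**Figure D3:**
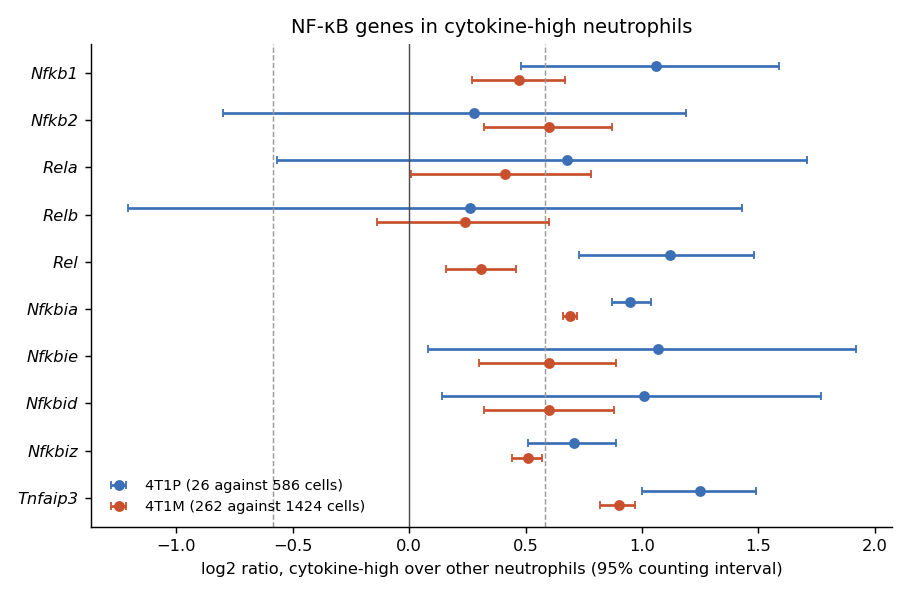
Log2 ratio of cytokine-high over other neutrophils for each gene in 4T1P (blue, 26 against 586 cells) and 4T1M (red, 262 against 1424 cells), with 95% counting intervals and dashed lines at 1.5-fold. Points lie right of 0 for all 10 genes under CPM scaling, and the 4T1P intervals are wide for genes with few UMIs, as for Relb with 6.

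Within the cytokine-high cells alone the libraries lay closer. The median log2 ratio of 4T1M over 4T1P was 0.17 there, against 0.06 over all genes, and 4T1P gave 26 cells. Tnfaip3 was higher in 4T1M, at 0.49 (0.25 to 0.73), and so were Nfkbiz at 0.25 (0.06 to 0.45) and Nfkbia at 0.15 (0.07 to 0.24). Rel was lower in 4T1M, at -0.45 (-0.83 to -0.06). The other 6 genes had intervals across 0, from -0.15 (-0.69 to 0.44) for Nfkb1 to 0.65 (-0.27 to 1.74) for Nfkb2. The share of all genes with an interval apart from 0 was not counted here.

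Levels were then followed over 5 ranges of the Il1a, Tnf and Il23a share. In 4T1M, with 394, 795, 235, 182 and 80 cells, Nfkbia stood at 5692 CPM without these UMIs, 7438 CPM at up to 0.25%, 11148 CPM from 0.25% to 0.5%, 12413 CPM from 0.5% to 1% and 13138 CPM at 1% or more. Tnfaip3 stood at 771, 1038, 1515, 1848 and 2476 CPM over the same ranges, and Nfkbiz at 1506, 1866, 2464, 2642 and 2937 CPM. On the CPM scale these inhibitors were thus higher in each successive range of 4T1M, with neighboring intervals apart except for the last steps of Nfkbiz. No other scaling was applied to the ranges, and no median over all genes was taken. Nfkbia and Tnfaip3 were thus already higher from 0.25% to 0.5%, below the gate, than in cells with less.

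In 4T1P, with 264, 278, 44, 19 and 7 cells, Nfkbia stood at 4699, 5847, 11405, 9969 and 15935 CPM. Its value from 0.5% to 1% lay below that of the range before it, so the order was not steady, and the 2 highest ranges hold under 20 cells each. Tnfaip3 stood at 525, 578, 1196, 1246 and 2078 CPM in 4T1P, below the 4T1M value in each range, and the intervals of the libraries overlapped from 1% on. Nfkb1 stood at 99.7, 191, 247, 235 and 325 CPM in 4T1M and at 96.5, 147, 252, 320.4 and 163 CPM in 4T1P. Rela stayed between 45.2 and 76.4 CPM over the ranges of 4T1M. Cells without these UMIs were also shallower, with a median of 2506 and 2132 UMIs in 4T1P and 4T1M against 3486 and 3277 in the next range. The parts of depth and of scaling were not tested.

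**Figure D4:**
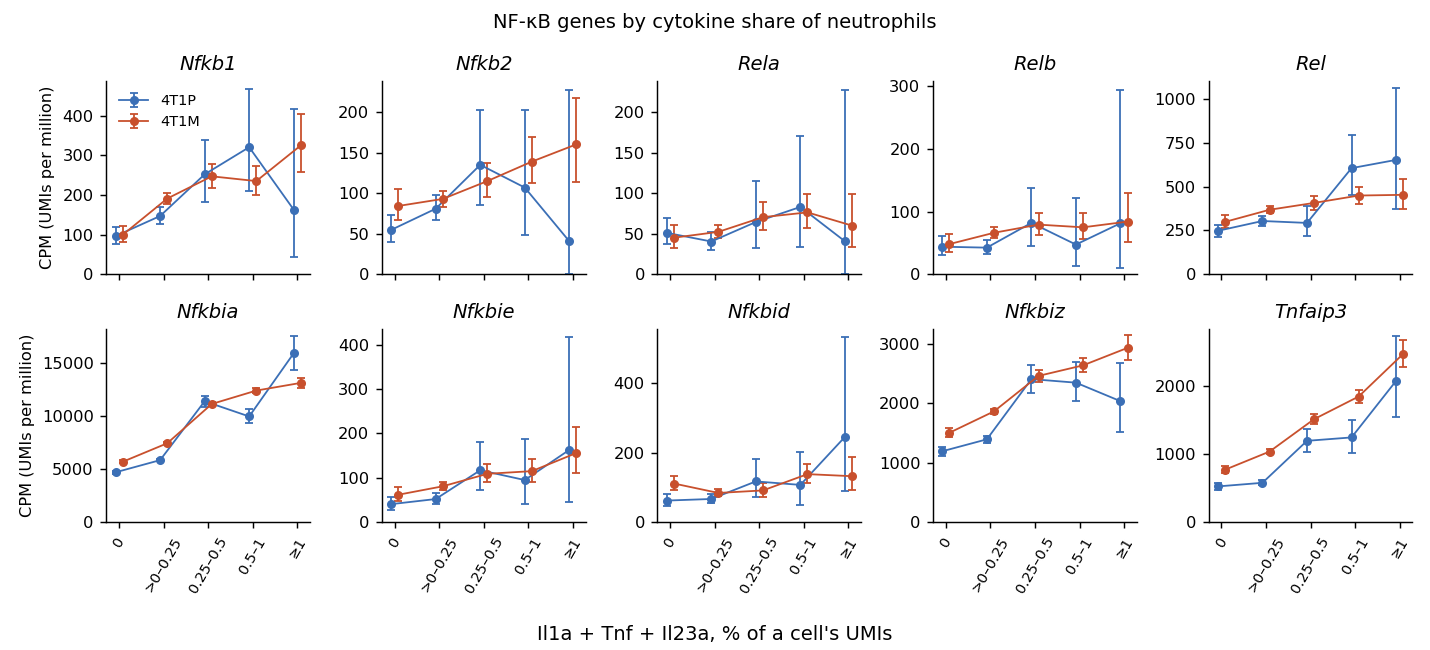
CPM of each gene in neutrophils grouped by the share of their UMIs from Il1a, Tnf and Il23a, for 4T1P (blue) and 4T1M (red), with 95% Poisson intervals; each panel has its own axis from 0. Nfkbia, Nfkbiz and Tnfaip3 climb over the ranges of 4T1M, Tnfaip3 from 771 to 2476 CPM, and the intervals of 4T1P widen to the right, where few cells remain.

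Macrophages and neutrophils differed in the balance of subunits and inhibitors. The subunits held 6.87% (6.55 to 7.22) and 6.27% (6.10 to 6.43) of the UMIs of all 10 genes in neutrophils of 4T1P and 4T1M, against 13.4% (13.1 to 13.7) and 15.4% (15.1 to 15.7) in macrophages. This share does not depend on how the libraries are scaled. It was 23.5% and 22.7% in the retained barcodes outside both classes that carried lymphocyte markers (120 and 147 cells).

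On the CPM scale, Nfkb1 was the only member at least 1.5-fold higher in macrophages, at 259.6 against 143 CPM in 4T1P and 322 against 196 CPM in 4T1M, where 62.8% and 60.3% of all genes were higher by that fold. The log2 ratios of Nfkb1 were 0.86 (0.69 to 1.02) and 0.72 (0.62 to 0.81), but 0.17 and -0.02 with TMM factors and 0.05 and -0.12 with DESeq2 factors, so its direction in 4T1M turns with the scaling. Lower by 1.5-fold in macrophages of 4T1P were Nfkbia, Nfkbiz and Nfkbid, and in 4T1M also Relb and Tnfaip3, where 15.2% and 16.3% of all genes were lower. Nfkbia had log2 ratios of -1.04 (-1.07 to -1.01) and -1.55 (-1.57 to -1.53). Nfkbiz had -0.72 (-0.78 to -0.67) and -1.18 (-1.22 to -1.14). Nfkb2 had -0.36 (-0.60 to -0.11) and -0.53 (-0.69 to -0.38), and Rela -0.15 (-0.45 to 0.16) and -0.24 (-0.44 to -0.04). Nfkbie changed direction, at 0.30 (0.03 to 0.58) in 4T1P and -0.34 (-0.51 to -0.18) in 4T1M. Its 4T1P value was -0.38 with TMM factors.

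Against the rest of the transcriptome these genes stood low in macrophages. Their median log2 ratio was -0.22 in 4T1P and -0.63 in 4T1M, where the median of all genes was 1.17 and 1.01. With TMM factors the medians of all genes were 0.49 and 0.27, those of the members -0.90 and -1.37, and 8 of the 10 members in 4T1P and 9 of the 10 in 4T1M were lower by 1.5-fold, where 27.3% and 30.0% of all genes were lower under the same factors. Tnfaip3 was near equal in the classes of 4T1P on the CPM scale, at a log2 ratio of -0.12 (-0.20 to -0.04), but was at -0.80 with TMM factors. Rel was level in 4T1P, at 298 CPM in each class and a log2 ratio of 0.00 (-0.12 to 0.12), but was at -0.68 with TMM factors.

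Neutrophil states differed too. Cells above the 90th percentile of the summed share of Camp, Ltf, Ngp and Lcn2, the granule genes of immature neutrophils (67 cells in 4T1P and 163 in 4T1M), had lower values of all 10 genes in both libraries, with medians of -1.13 and -0.91 against -0.57 and -0.41 over all genes. The share of all genes that were lower was not counted. In 4T1P the intervals of Nfkbie (-1.21 to 0.10) and Nfkb2 (-0.73 to 0.29) reached across 0. Less low than the median of all genes were Nfkbie at -0.53 and Nfkb2 at -0.21 in 4T1P, and Nfkb1 at -0.29 in 4T1M. Nfkbia stood at 3422 CPM in these cells and 6969 CPM in the others of 4T1P, and at 4668 and 9433 CPM in 4T1M, log2 ratios of -1.03 (-1.09 to -0.96) and -1.01 (-1.05 to -0.98). Nfkbid stood at 9.55 against 92.3 CPM in 4T1P, a log2 ratio of -3.27 (-4.74 to -2.12), and at 44.7 against 109 CPM in 4T1M. These cells were deeper, with a median of 7369 and 5718 UMIs against 2934 and 2822, and 0 and 10 of them were cytokine-high.

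Cells high in Retnlg, Prok2 and Wfdc17 (75 and 155 cells) also had lower values of all 10 genes, with medians of -0.59 and -0.78 against -0.41 and -0.47 over all genes. Here too the share of all genes that were lower was not counted. The Retnlg-high cells were also deeper, with a median of 5627 and 4160 UMIs against 2934 and 2888. In each library 0 of them were cytokine-high, so all cytokine-high cells lay on the other side. The parts of depth and of these cells were not tested. Nfkbid at -0.28 and Rel at -0.27 in 4T1P were less low than the median of all genes. The intervals of Nfkbid, Nfkb2, Rel and Relb in 4T1P and of Relb in 4T1M reached across 0. Tnfaip3 had log2 ratios of -0.72 (-0.95 to -0.50) in 4T1P and -1.38 (-1.54 to -1.22) in 4T1M in these cells. In cells high in the interferon-induced Ifit1, Ifit2, Ifit3, Isg15, Rsad2 and Oasl1 (51 and 179 cells), 9 of the 10 genes were above 0 in each library, with medians of 0.38 and 0.15 against -0.14 and -0.21. The share of all genes above 0 was not counted. The exceptions were Nfkb2 in 4T1P, at -0.28 (-1.31 to 0.59), and Rela in 4T1M, at -0.59 (-1.26 to 0.02). The interval of Tnfaip3 lay above 0 in 4T1P only. Intervals above 0 in both libraries were found for Nfkbia, Nfkbiz, Rel and Relb. Relb had the highest point ratio among them, at 86.8 against 43.3 CPM in 4T1P and 95.5 against 64.6 CPM in 4T1M, log2 ratios of 1.0 (0.11 to 1.79) and 0.56 (0.13 to 0.97). It rested on 15 and 56 UMIs in these cells, and its intervals held the ratios of Nfkbia, Nfkbiz and Rel. Nfkbia had 0.39 (0.31 to 0.47) and 0.23 (0.19 to 0.27).

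Macrophage states, cut in the same way, set members apart from each other. In cells high in Cxcl9, an interferon-induced chemokine (78 and 100 cells), Nfkbie stood at 125 against 62.4 CPM in 4T1P and 88.6 against 67.9 CPM in 4T1M, log2 ratios of 1.0 (0.67 to 1.32) and 0.38 (0.05 to 0.71), while Nfkbia was lower, at -0.13 (-0.19 to -0.06) and -0.35 (-0.41 to -0.29). In cells high in Thbs1, Mmp12 and Arg1 (87 and 91 cells), Nfkbia was higher, at 3814 against 2834 CPM in 4T1P and 3487 against 2845 CPM in 4T1M. Rel was lower in the same cells, at -0.52 (-0.72 to -0.32) and -1.10 (-1.34 to -0.87), as was Nfkb1 at -0.41 (-0.63 to -0.21) and -0.54 (-0.75 to -0.34). In cells high in Lyve1, Cd163 and Folr2 (134 and 44 cells), Nfkbid stood at 79.8 against 40.4 CPM in 4T1P, a log2 ratio of 0.98 (0.66 to 1.30), but had -0.05 (-0.98 to 0.74) in 4T1M. Nfkbiz was higher there in both libraries, at 0.12 (0.03 to 0.20) and 0.39 (0.25 to 0.54).

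**Figure D5:**
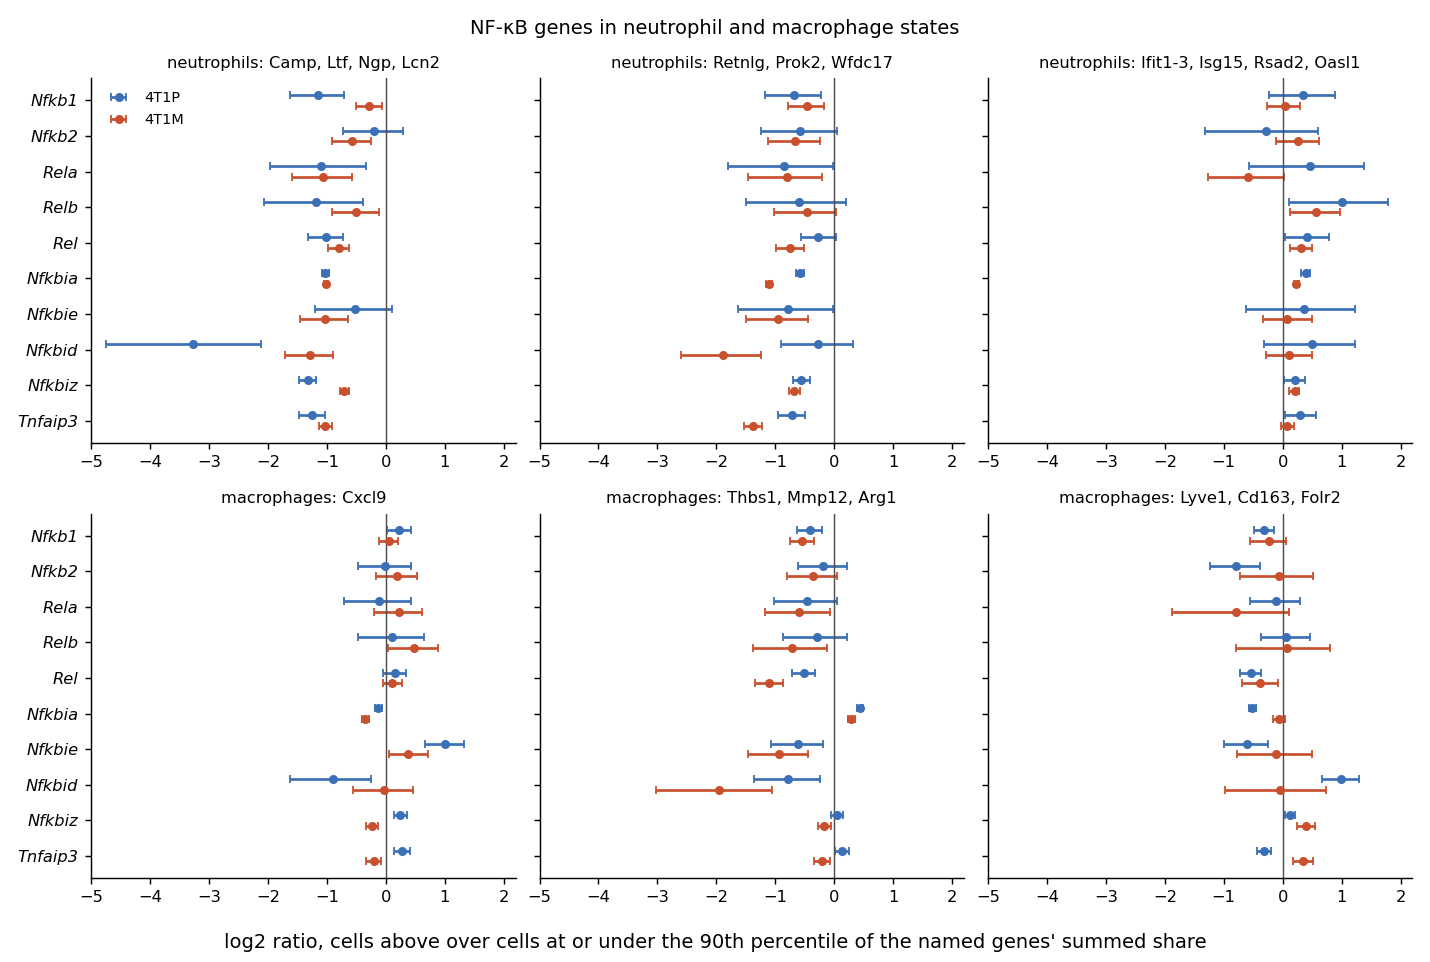
Log2 ratio of each gene in cells above against cells at or under the 90th percentile of the summed share of the genes named over each panel, for neutrophils (upper row) and macrophages (lower row) of 4T1P (blue) and 4T1M (red), with 95% counting intervals. All points of the first 2 panels lie left of 0, where the medians over all genes are below 0 as well. In the panel of Thbs1, Mmp12 and Arg1 Nfkbia lies right of 0, at 0.43 and 0.29, while Rel and Nfkb1 lie left.

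The other genes of the pathway were taken as 4 lists. Of 14 receptors and co-receptors, 11 had 50 UMIs in neutrophils, and 1 was at least 1.5-fold higher and none lower in 4T1M, with a median log2 ratio of 0.28. Over all genes tested in this comparison, 9.81% were higher and 3.12% lower by that fold, so the share of receptors was near the background. That gene was Tlr7, a receptor for single-stranded RNA, at 9.27 against 5.99 CPM with an interval across 0 (-0.20 to 1.55). Tlr2, a receptor for bacterial lipoproteins, stood at 317 against 217 CPM, a log2 ratio of 0.54 (0.41 to 0.68), and the TNF receptor Tnfrsf1a at 110.5 against 124 CPM. Of 25 adaptors and kinases 22 were measured, with 2 higher, which is again near that background, none lower and a median of 0.15. Traf6, the ubiquitin ligase of the Toll-like and interleukin-1 receptor branch, stood at 44.2 against 18.0 CPM, a log2 ratio of 1.30 (0.84 to 1.79). Irak4 was the lowest of this list, at -0.43.

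Of 14 further inhibitors and feedback genes all 14 were measured, with 4 higher, none lower and a median of 0.30. Over all genes tested, 9.81% were higher and 3.12% lower by 1.5-fold. Tnip1, a binding partner of the Tnfaip3 protein, stood at 91.8 against 54.3 CPM, a log2 ratio of 0.76 (0.49 to 1.04), and N4bp1 at 544 against 320.4 CPM, a log2 ratio of 0.76 (0.65 to 0.88). Tnip3 rested on 58 and 5 UMIs. At the low end of the list were Tnip2, at -0.58 and just short of the fold, and Cyld and Nfkbil1, at -0.15 each. Of 41 known targets 36 were measured, with 17 higher, none lower and a median of 0.47, equal to that of the 10 genes. Ccl5, a chemokine that attracts T cells, stood at 24.2 against 5.19 CPM, and the cytokine Il6 rested on 86 and 7 UMIs. Lcn2, which is also a granule gene, was at the low end with 2990.3 against 4366 CPM, a log2 ratio of -0.55 (-0.58 to -0.51).

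In cytokine-high against other neutrophils the targets stood highest of the lists, with 19 of 31 higher and 4 lower in 4T1P and 23 of 35 higher and 2 lower in 4T1M, and medians of 0.82 and 1.10 on the CPM scale. Over all genes, 21.8% were higher and 26.1% lower in 4T1P, and 17.1% and 11.7% in 4T1M. The survival genes Bcl2a1a, Bcl2a1b and Bcl2a1d led the list, Bcl2a1b at 1121 against 180.4 CPM in 4T1P and 1110.1 against 345 CPM in 4T1M. These copies are near identical, so their separate counts are uncertain. Receptors and adaptors had medians of 0.05 and 0.07 in 4T1P and -0.02 and 0.09 in 4T1M. Of the further inhibitors and feedback genes, 1 of 11 was higher and 3 lower in 4T1P, and 4 of 14 higher and 1 lower in 4T1M. Their medians were 0.33 and 0.41. By the mean of the libraries Irak3 was the highest of them, at 0.64, and Cyld and Bcl3 the lowest, at -0.89 and -0.76. Ikbkb, a catalytic subunit of the kinase that marks IκB for destruction, was among the highest adaptors and kinases at 1.36 (0.18 to 2.36) and 0.70 (0.26 to 1.12). Myd88, the lowest of that list by the mean of the libraries, had -1.28 (-3.57 to 0.30) and -0.53 (-0.97 to -0.12). Tnfrsf1b was the highest receptor by the mean of the libraries, at 0.86 (0.36 to 1.32) and 0.60 (0.43 to 0.77), and Tnfrsf1a, the lowest by the mean of the libraries, had -1.80 (-3.69 to -0.43) and -0.81 (-1.20 to -0.45).

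The pattern of the members over 8 groups (cytokine-high neutrophils, other neutrophils, macrophages and remaining barcodes of each library) was compared with that of 2249 genes, by Pearson's r of log2(CPM + 10). These are descriptions over groups that share libraries. Nfkbia was most like Pts and Eea1 (r = 0.996 each) and Rnd1 (0.995), and Nfkbiz like Ninj1 (0.996), Slc7a11 (0.995) and Nfkbia itself (0.991). Tnfaip3 was most like the adhesion gene Icam1 (0.952), Nfkbie like Tnfaip3 (0.942), and Nfkb2 like Tnip1 (0.988). Among the members, Nfkb2 and Relb had r = 0.93, and Nfkb1 stood apart from Nfkbia (-0.14), Nfkbiz (-0.13) and Nfkbid (-0.09).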

How the data were processed

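Per the labels and file headers, the deposited values are raw UMI counts per gene and barcode made by the authors with Cell Ranger 4.0.0 on mm10 (the methods name another version), unnormalized, for barcodes of at least 500 UMIs. The chemistry is not given in the sources used here. The depth was 21855657 UMIs in 4T1P and 24303957 UMIs in 4T1M. The retained cells outnumber those stated in the methods, where further cells were discarded.

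UMIs were summed per class and library in Python 3.11.15 (numpy 2.4.6, pandas 2.3.3, scipy 1.17.1) and divided by the class total. CPM has exact Poisson intervals, log2 ratios exact conditional binomial intervals and shares Clopper-Pearson intervals. Only the log2 ratios and their intervals were checked on simulated data. A gene was tested with at least 50 UMIs in the 2 sums together and called at 1.5-fold. No p-value was computed. Doublets were kept, since Scrublet (scanpy 1.11.5) called 1 and 0 barcodes. In an alternative the highest scores (69 and 200 barcodes) were removed. edgeR 4.0.16 and DESeq2 1.42.0 under R 4.3.3 gave scaling factors only.

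The members, gates and lists were chosen with earlier results of these data known. All 10 members are named in the comparisons of whole classes and of cytokine-high with other neutrophils. For cell states, ranges and parts of a class only some are named. From each pathway list the 3 highest and 3 lowest genes of the neutrophil comparisons could be named, of which some are described, and the most alike genes by r among those of at least 100 CPM in a group. The split of the remaining barcodes and the comparisons within parts of a class were chosen after seeing the data. The 8 promoter matches shown were chosen after the search.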

Additional observations from a re-analysis of the deposited data

Results flagged for a closer look

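Nfkbid was higher in 4T1M neutrophils and lower in 4T1M macrophages. Its log2 ratio of 4T1M over 4T1P was 0.44 (0.20 to 0.68) in neutrophils and -0.30 (-0.51 to -0.09) in macrophages, each from 1 library per condition. The difference between the classes was not tested, for want of replicates. The neutrophil value was 0.24 (-0.01 to 0.49) without the cells high in Camp, Ltf, Ngp and Lcn2, and -0.02 (-0.79 to 0.86) within cytokine-high cells. It was 0.39 (0.13 to 0.65) below the cytokine gate and 0.84 (0.35 to 1.35) without Il1a, Tnf and Il23a UMIs. The macrophage value was 0.02 with a mitochondrial limit of 5% and -0.08 (-0.31 to 0.15) without the cells high in Lyve1, Cd163 and Folr2, which made up 16.8% of the macrophages of 4T1P and 4.51% of those of 4T1M.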

How the results depend on the processing

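No paired analysis was possible because each condition has 1 library and no test was run. The counts of members past 1.5-fold between the libraries stayed within 1.5 times of the values given, except that 0 of the 10 were higher in 4T1M neutrophils at 2-fold. Of all genes tested, 2.78% were higher there at 2-fold. For cytokine-high neutrophils of 4T1P, 5 were higher with TMM factors, with DESeq2 factors and at 2-fold, and 1 was lower with the neutrophil gate at 3% and the cytokine gate at 1%. Of all genes, 9.82% were higher in each of the first settings, and 28.3% and 31.1% were lower in the last ones. In 4T1M, 1 was higher with TMM and with DESeq2 factors, 0 at 2-fold, 2 with the 10 most abundant genes left out of the totals, and 3 with the neutrophil gate at 3% and the cytokine gate at 0.25%. Over all genes the shares higher were 8.67%, 8.97%, 5.45%, 13.9%, 15.9% and 16.0% in that order. For macrophages over neutrophils, 0 were higher in either library with TMM factors, DESeq2 factors, a 2-fold call, the 10 most abundant genes left out or cells weighted equally, and in 4T1M with a mitochondrial limit of 5%. Over all genes the shares higher in these settings ran from 44.8% to 61.5% in 4T1P and from 40.8% to 59.1% in 4T1M. Lower there were 8 in 4T1P and 9 in 4T1M with TMM and with DESeq2 factors, 1 and 3 at 2-fold, and 5 in 4T1P with the 10 most abundant genes left out. Called values changed sign for Rela in cytokine-high cells of 4T1P (-0.21 with the gate at 1%) and for Nfkb1 in macrophages over neutrophils of 4T1M (-0.02 with TMM, -0.12 with DESeq2 factors). Apart from scaling, fold and gate, which act by construction, the cause was not tested. The median of the members in 4T1M over 4T1P ran from 0.42 to 0.49 in neutrophils and from 0.07 to 0.16 in macrophages over 11 alternatives each. In parts of the neutrophils chosen after seeing the data it was 0.31 without Il1a, Tnf and Il23a UMIs, 0.39 without the immature cells and 0.43 below the cytokine gate, and in macrophages without the cells high in Lyve1, Cd163 and Folr2 it was 0.07. Of 770 values of single members under an alternative, 615 stayed within their counting interval, 152 moved and 3 called values changed sign. At any size, 21 had a sign opposite to the main value. Among these, in cytokine-high cells of 4T1P, were Relb at -0.71 with the neutrophil gate at 3% and Nfkb2 at -0.91 with the cytokine gate at 1%. With 26 cytokine-high cells in 4T1P, depth limits the rarer members, and 1 library per condition limits every comparison.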

Other observations

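The NF-κB genes were also read in the retained barcodes that fell in neither class. In the 185 barcodes of 4T1P and 599 of 4T1M that were low in S100a8 and S100a9, macrophage and lymphocyte genes, which were left unnamed, Nfkbia stood at 7140.4 and 10029 CPM and Tnfaip3 at 1164 and 1658 CPM. The median log2 ratio of 4T1M over 4T1P for the 10 genes was 0.50 in these barcodes, against -0.06 over all genes, and 0.48 when they were joined to the neutrophils. Rela, whose interval reached across 0 in neutrophils, had 0.73 (0.23 to 1.27) here, at 51.2 and 85.2 CPM. Relb had 0.81 (0.28 to 1.37), at 47.3 and 82.7 CPM. Their neutrophil markers summed to 6070.5 and 7721 CPM, all 10 with a UMI in each library. The markers of other cells moved as well. The 6 epithelial and tumor cell markers summed to 118 CPM in 4T1P, with Krt14 at 0, and 319.8 CPM in 4T1M, the 12 monocyte and macrophage markers to 2090.0 and 1434 CPM, and the 6 fibroblast and endothelial markers to 190.4 and 8.27 CPM, with Col3a1 at 123 and 0.487 CPM. Their part in the result was not tested.

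Barcodes with lymphocyte markers (120 and 147) had Rel at 486 CPM in 4T1P and 408 CPM in 4T1M, and Nfkbia at 1789 and 1645 CPM, below its level in the macrophages of each library.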
